A study of Mus musculus with 39 samples.

Results

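The 2 histone marks H3K4me3 and H3K27me3 were set against each other in mature granule cells of the mouse cerebellum at postnatal day 21 (P21), by chromatin immunoprecipitation and sequencing (ChIP-seq). The libraries were those labelled P21 with an antibody to trimethylated lysine 4 of histone H3 (H3K4me3, 2 libraries) or to trimethylated lysine 27 (H3K27me3, 5 libraries), 7 of the 39 samples of the series. All came from C57Bl/6J mice, with no transgene or treatment named, and from cerebellar nuclei fixed with formaldehyde and sorted for the neuronal protein NeuN and the granule cell factor NeuroD1. Chromatin was sonicated before precipitation, so levels are those of fragments and not of single nucleosomes. The labels state neither the sex of the mice nor how many were pooled, and they do not say that replicates came from separate animals, so p-values measure only the spread between these libraries. The readouts were a count of reads at the transcription start site (TSS) of each gene and a list of peaks for each library.

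H3K4me3 is laid down around the start sites of transcribed genes, most of all where the promoter is rich in CpG dinucleotides. H3K27me3 is the product of Polycomb repressive complex 2 (PRC2), which holds genes of other lineages silent and can cover whole gene clusters. A promoter that carries both marks is called bivalent, a state known from developmental genes of embryonic stem cells. Granule cells are small excitatory neurons that arise from Atoh1-expressing progenitors, which divide under Sonic hedgehog (Shh) before they leave the cell cycle, migrate inwards and connect to Purkinje cells.

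Total counts over all TSS were 456411 and 2088694 in the H3K4me3 libraries, and 264093, 310711, 910778, 715341 and 623577 in the H3K27me3 libraries. Levels are given as CPM, in which the counts of each library at tested TSS are brought to one common total, with totals adjusted by edgeR's TMM factors. Counts were spread further from the typical TSS in the H3K27me3 libraries: the 95th percentile was 3 and 4.30 times the median for H3K4me3, against 5 to 10.3 times for H3K27me3. Across 24039 TSS the Spearman correlation was 0.871 between the H3K4me3 libraries, lay between 0.710 and 0.894 among the H3K27me3 libraries and between −0.21 and 0.14 across the marks; TSS are not independent replicates. No count from input chromatin entered the table, so a level holds background as well as the mark. TSS with no peak of either mark had a median of 25.2 CPM for H3K4me3 and 27.2 CPM for H3K27me3.

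The granule cell identity of the nuclei was read from 10 marker genes. H3K4me3 was higher than H3K27me3 at 7 of them, Etv1, Gabra6, Pax6, Zic1, Zic2, Cbln3 and Slc17a7, with log2 ratios of H3K4me3 over H3K27me3 between 0.99 and 3.19; over all TSS tested H3K4me3 was higher at 40.1% and H3K27me3 at 24.6%. Slc17a7, the vesicular glutamate transporter of these cells, had 60.8 and 68.3 CPM of H3K4me3, against 17.6, 23.8, 24.9, 26.9 and 29.2 CPM of H3K27me3 (log2 1.37, SE 0.35, edgeR adjusted p = 0.00174). Both H3K4me3 libraries lay above all 5 H3K27me3 libraries there. Of the 7 genes, Etv1 had an H3K4me3 peak at its start in 0 of the 2 lists and Pax6 in 1. Pax6, Zic2 and Cbln3 have another TSS 1434, 185 and 686 bases away, whose share of the counts was not tested. Fat2 (log2 −0.47, adjusted p = 0.268) and Rbfox3, the gene of NeuN (log2 0.35, adjusted p = 0.465), did not pass the test. Neurod1 was listed with a count of 0 in all 7 libraries, although a peak in both H3K4me3 lists covered its start; the cause was not tested.

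The peak lists split the starts unevenly between the marks. An H3K4me3 consensus region was a stretch covered in both lists of that mark, an H3K27me3 region a stretch covered in at least 2 of the 5 lists, and a TSS was assigned by the regions within 1 kb of it on either side. H3K4me3 alone was present at 6145 of 23985 TSS (25.6%), both marks at 328 (1.37%), H3K27me3 alone at 4264 (17.8%) and neither at 13248 (55.2%). The start used was the first base of the most upstream curated RefSeq transcript of each gene on GRCm38.p6, the assembly of mm10. In nuclei pooled for ChIP-seq, both marks on the same allele, on sister alleles or in different nuclei cannot be told apart, nor can fewer marked nuclei and less mark in each.

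H3K4me3 lay almost wholly at gene starts and H3K27me3 mostly away from them. A TSS was within 1 kb of 92.8% and 89.2% of H3K4me3 peaks, against 18.4%, 22.0%, 10.8%, 8.32% and 10.9% of H3K27me3 peaks. The means were 91.0% ± 2.55 (SD, n = 2) and 14.1% ± 5.82 (SD, n = 5), with no overlap; the difference of 76.9 percentage points had an exact two-sided permutation p = 0.0952, the smallest that 2 against 5 libraries allow. Median peak widths were 1258 and 1754 bases for H3K4me3, against 1505, 1553, 1936, 1279 and 1812 bases for H3K27me3, and these overlapped (exact permutation p = 0.571). The difference of −111 bases became 137 without H3K4me3 replicate 1. The upper tail of widths differed more. The widest consensus region had 6178 bases for H3K4me3 and 505610 bases for H3K27me3, and the 5840 H3K4me3 regions covered 7.74 Mb, against 182 Mb for the 36672 H3K27me3 regions. Of the H3K4me3 regions 275 (4.71%) touched an H3K27me3 region.

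Levels followed the classes, which came from peaks of the same libraries, so they are a description. The median H3K4me3 level was 77.1 CPM at TSS with H3K4me3 alone, 73.8 CPM at TSS with both and 25.7 CPM at TSS with H3K27me3 alone, the last close to the 25.2 CPM of TSS with neither. The median H3K27me3 level was 12.1 CPM, 44.1 CPM and 91.5 CPM in the same classes. TSS with both marks thus had H3K4me3 somewhat below the level of the H3K4me3-only class and H3K27me3 between the levels of the other marked classes. At TSS with no other TSS within 2 kb the median H3K4me3 level was 88.2 CPM with H3K4me3 alone and 80.4 CPM with both. Over all TSS with both marks, H3K4me3 regions had a median of 1001 bases, against 1259 bases at TSS with H3K4me3 alone. The lower quartile was 1001 bases in both of these classes. Many regions at TSS with both marks thus share this exact width, and the difference was not tested. The H3K27me3 regions at TSS with both marks had a median of 4295 bases, against 5760 bases at TSS with H3K27me3 alone.

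**Figure D1:**
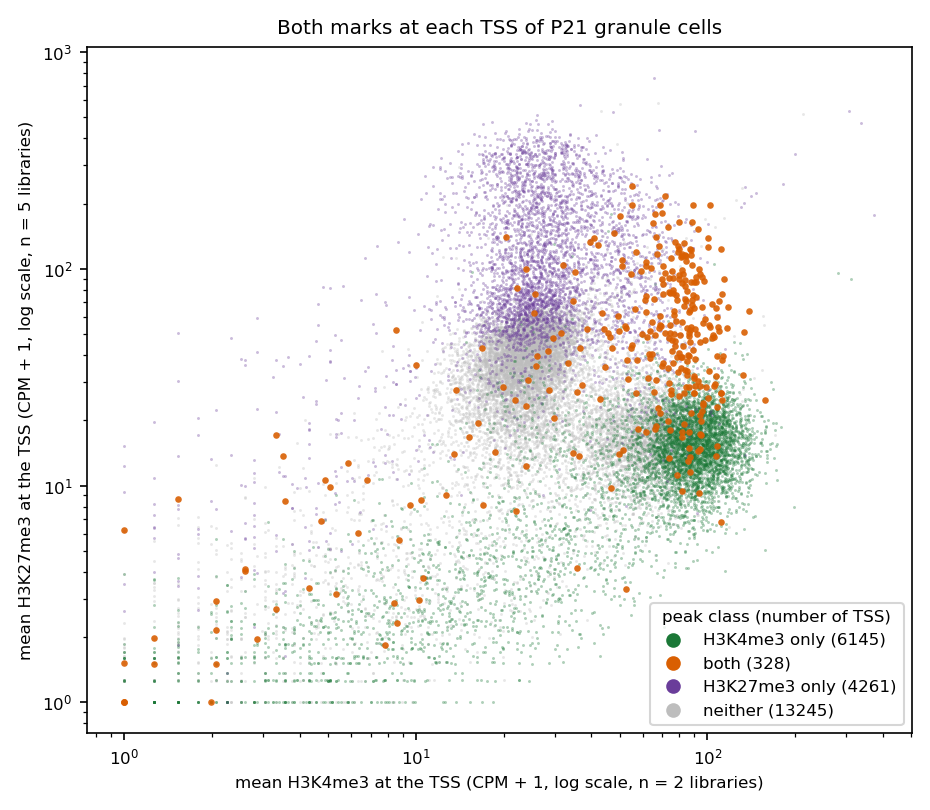
Mean H3K4me3 level (horizontal axis, CPM + 1, log scale, n = 2 libraries) and mean H3K27me3 level (vertical axis, CPM + 1, log scale, n = 5 libraries) at each TSS of P21 granule cells, coloured by peak class. TSS with H3K4me3 alone gather at the lower right, TSS with H3K27me3 alone at the upper left at about the H3K4me3 level of TSS with neither, and the 328 TSS with both marks stretch upwards from the H3K4me3-only group.

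The balance of the marks was tested at each of 21685 TSS as the log2 ratio of H3K4me3 over H3K27me3 (edgeR quasi-likelihood, two-sided, Benjamini-Hochberg over all TSS tested). H3K4me3 was higher at 8686 TSS and H3K27me3 at 5327, the 40.1% and 24.6% given above. By the values alone, both H3K4me3 libraries lay above all H3K27me3 libraries at 40.4% of TSS and below all of them at 30.3%. The zero of this ratio is set by the scaling, since the marks were pulled down with different antibodies: the median over all TSS was −0.12 with TMM, 0.02 with DESeq2-style size factors and 0.20 in DESeq2, and a fold is read against it. With DESeq2-style size factors 8890 and 4363 TSS were called, and with library totals 8587 and 4645. DESeq2 called 8822 and 3781. Of the TSS called in any of these 3 ways, 0 were called the opposite way with TMM. Against H3K27me3 replicates 1 and 2, which share an input library, 8557 and 6657 TSS were called, and against replicates 3 to 5, each with its own input, 8532 and 6064. The count of TSS with higher H3K27me3 rested on both H3K4me3 libraries: it was 3242 without H3K4me3 replicate 1 and 3136 without replicate 2.

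The largest ratios towards H3K4me3 were at genes of varied function. Tada2b (gene 231151, chromosome 5, 36473670 to 36484285), an adaptor of the SAGA histone acetyltransferase complex, had 58.8 and 81.5 CPM of H3K4me3, against 0, 0, 2.49, 0 and 3.66 CPM of H3K27me3. The log2 ratio was 5.46 (SE 0.53, adjusted p = 1.94e-06), and the libraries of the marks lay far apart. Rsf1, a chromatin remodelling subunit, was second (log2 5.21). Ssbp3 (gene 72475, chromosome 4, 106911470 to 107049694), a cofactor of LIM-domain transcription complexes, had 108 and 205 CPM of H3K4me3, against 3.53, 0, 4.97, 8.06 and 3.66 CPM of H3K27me3 (log2 5.04, SE 0.46). Its H3K4me3 level stood at the 99.8th percentile of all TSS. Next came Arl1, a small GTPase of the Golgi (5.01), Jup, plakoglobin of cell junctions (4.79), Trim62, a ubiquitin ligase (4.73), Calm2, a calmodulin gene (4.62), and Tmem59, a membrane protein (4.57). None of the 8 had an H3K27me3 peak in any list, and their H3K4me3 regions were 1254 to 2370 bases wide. Tada2b, Rsf1, Arl1, Jup and Tmem59 have another TSS 264 to 399 bases away, whose share of the counts was not tested. At TSS with H3K4me3 alone and another TSS 100 to 500 bases away, the median H3K4me3 level was 17.8 CPM and the median log2 ratio 3.04. Where the next TSS was over 20 kb away they were 90.1 CPM and 2.50. A level at such a close start is no measure of the mark, so the place of these genes in the ranking is uncertain.

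At the other end, 5 of the 8 genes with the largest ratios towards H3K27me3 encode Hox, forkhead or doublesex-related transcription factors. Hoxc11 (gene 109663, chromosome 15, 102954526 to 102956701), which patterns the posterior body, had 9.80 and 11.1 CPM of H3K4me3, against 208, 221, 405, 228 and 413 CPM of H3K27me3. The log2 ratio was −4.78 (SE 0.60, adjusted p = 3.33e-06), with every H3K27me3 library far above both H3K4me3 libraries. C1ql4 (gene 239659, chromosome 15, 99084086 to 99090674), a secreted relative of the complement protein C1q, had 9.80 and 22.2 CPM of H3K4me3, against 240, 468, 584, 443 and 592 CPM of H3K27me3 (log2 −4.74, SE 0.61). Dmrta2 (gene 242620, chromosome 4, 109977989 to 109983691), a factor of forebrain progenitors, had 11.8 and 22.8 CPM of H3K4me3, against 233, 388, 609, 501 and 653 CPM of H3K27me3 (log2 −4.69, SE 0.61). Both genes reached the 99.9th percentile or above for H3K27me3. The others were Hoxc12 (−4.72), Pfdn4, a chaperone subunit whose start lies 717 bases from another TSS (−4.69), the forkhead genes Foxe1 (−4.65) and Foxd3 (−4.63), and Igf2os, transcribed opposite the imprinted Igf2 (−4.63). All 8 had an H3K27me3 peak in all 5 lists and an H3K4me3 peak in none, and their regions were 18622 to 205556 bases wide.

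The promoters of 4 of these genes are shown as RefSeq gives them on GRCm38.p6, from 250 bases before the start to 50 after it, 5′ to 3′ on the strand of the gene, with each CpG in capitals, since CpG content differed between the peak classes. Tada2b (chr5:36484236-36484535, minus strand) holds 43 CpG and Ssbp3 (chr4:106911220-106911519, plus strand) 50, whereas C1ql4 (chr15:99087679-99087978, minus strand) holds 28 and Dmrta2 (chr4:109977775-109978074, plus strand) 26.
Tada2b: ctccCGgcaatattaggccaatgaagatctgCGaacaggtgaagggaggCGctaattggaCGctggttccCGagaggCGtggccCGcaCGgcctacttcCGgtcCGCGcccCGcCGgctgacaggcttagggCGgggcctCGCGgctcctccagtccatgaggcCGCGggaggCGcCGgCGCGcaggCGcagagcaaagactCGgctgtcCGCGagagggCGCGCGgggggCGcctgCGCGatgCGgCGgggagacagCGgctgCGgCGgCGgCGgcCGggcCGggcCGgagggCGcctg
Ssbp3: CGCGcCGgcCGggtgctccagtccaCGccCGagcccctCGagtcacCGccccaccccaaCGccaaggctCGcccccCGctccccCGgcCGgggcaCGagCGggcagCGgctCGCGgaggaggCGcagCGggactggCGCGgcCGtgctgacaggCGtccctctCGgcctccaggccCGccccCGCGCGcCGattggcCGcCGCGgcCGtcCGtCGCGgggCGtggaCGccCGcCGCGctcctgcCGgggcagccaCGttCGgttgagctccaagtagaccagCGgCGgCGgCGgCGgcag
C1ql4: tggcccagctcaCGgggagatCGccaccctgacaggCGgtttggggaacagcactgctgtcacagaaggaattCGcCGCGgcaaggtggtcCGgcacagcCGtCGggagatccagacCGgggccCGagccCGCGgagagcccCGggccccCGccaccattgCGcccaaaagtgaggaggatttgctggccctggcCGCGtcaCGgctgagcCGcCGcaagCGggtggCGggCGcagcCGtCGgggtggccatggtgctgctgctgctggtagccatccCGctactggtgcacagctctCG
Dmrta2: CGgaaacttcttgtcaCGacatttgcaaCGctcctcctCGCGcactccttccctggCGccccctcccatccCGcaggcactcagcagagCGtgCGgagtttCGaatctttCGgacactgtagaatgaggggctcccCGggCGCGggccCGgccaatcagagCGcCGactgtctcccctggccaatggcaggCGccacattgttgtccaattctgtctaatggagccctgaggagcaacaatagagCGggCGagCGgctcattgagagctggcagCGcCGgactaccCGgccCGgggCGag

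Among TSS with both marks, the genes that ranked highest in both were of mixed function, kinases and enzymes among them. Mast4 (gene 328329, chromosome 13, 102732486 to 103335099), a microtubule-associated kinase, had 78.4 and 124 CPM of H3K4me3, against 70.6, 107, 334, 212 and 256 CPM of H3K27me3. The libraries of the marks overlapped (log2 −0.96, SE 0.52, adjusted p = 0.111), and the means stood at the 94.3rd and 96.1st percentiles of their marks. Xylt1 (gene 233781), which starts the sugar chains of proteoglycans, had 90.2 and 110 CPM of H3K4me3, against 56.5, 44.7, 235, 208 and 148 CPM of H3K27me3 (log2 −0.50, adjusted p = 0.404). Gch1 (gene 14528), the rate-limiting enzyme of tetrahydrobiopterin synthesis, had 86.3 and 99.0 CPM of H3K4me3, against 35.3, 74.5, 142, 109 and 132 CPM of H3K27me3 (log2 −0.11, adjusted p = 0.821). In Xylt1 and Gch1 the H3K4me3 libraries fell inside the range of the H3K27me3 libraries. Hunk, a kinase, Zbtb7c, a zinc-finger gene, Bmper, a binder of bone morphogenetic proteins, Spats2l, Mtus1, a microtubule-associated protein, Prss12, the serine protease neurotrypsin, and Sh3rf3 completed the 10. These genes were chosen for ranking high in both marks, so ratios near 0 and overlapping libraries follow in part from the choice and are a description. Their log2 ratios ran with the 3 above from −0.96 to 0.34, and 0 of 10 passed edgeR's test, 0 had an unadjusted p under 0.05 and 0 passed in DESeq2. The libraries of the marks overlapped in all 10. The ratios moved with the H3K27me3 libraries used: against replicates 1 and 2 alone Mast4 stood at 0.39, Zbtb7c at 1.63 (adjusted p = 0.000721), Xylt1 at 1.18 (0.0162), Hunk at 1.05 (0.0264) and Spats2l at 1.03 (0.0367). Against replicates 3 to 5 alone Mast4 stood at −1.51 (adjusted p = 0.000479), Bmper at −1.20 (0.00651), Xylt1 at −1.11 (0.0110) and Hunk at −0.90 (0.0416), so Xylt1 and Hunk were called in opposite directions by the choice of libraries. Without H3K27me3 replicate 1 Mast4 was called towards H3K27me3 (adjusted p = 0.0244).

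**Figure D2:**
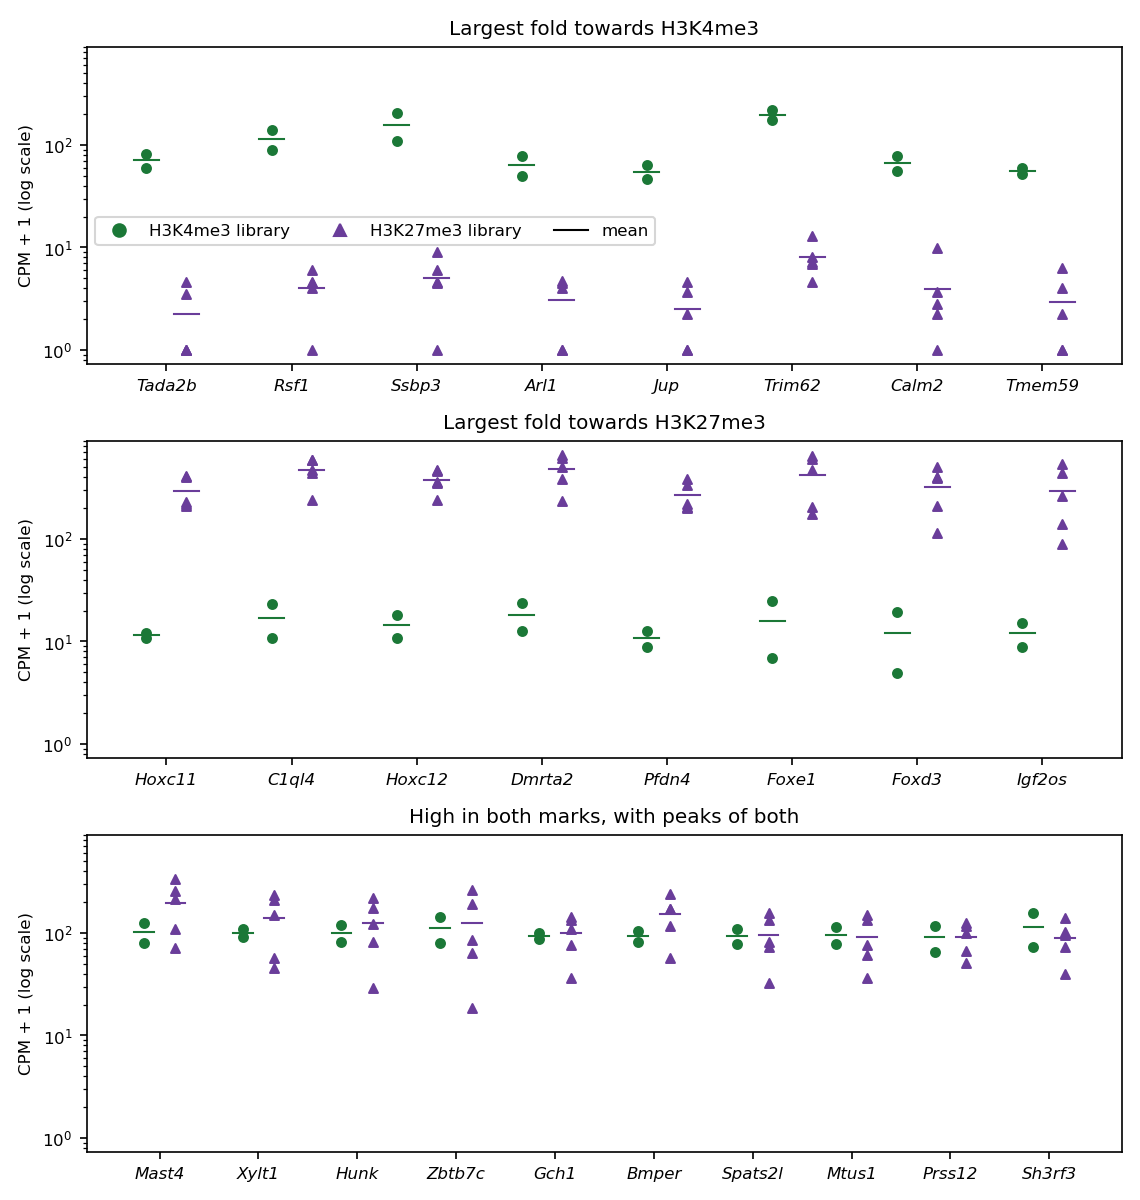
H3K4me3 (circles, 2 libraries) and H3K27me3 (triangles, 5 libraries) levels in CPM + 1 on a log axis at the genes with the largest ratio towards each mark and at the 10 genes high in both, with a line at each mean. The marks are apart in every gene of the upper 2 panels and overlap in every gene of the lowest panel.

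Promoters of 3 of these genes show the same region and marking: Mast4 (chr13:103334443-103334742, minus strand, 37 CpG), Hunk (chr16:90386147-90386446, plus strand, 41 CpG) and Gch1 (chr14:47189364-47189663, minus strand, 20 CpG).
Mast4: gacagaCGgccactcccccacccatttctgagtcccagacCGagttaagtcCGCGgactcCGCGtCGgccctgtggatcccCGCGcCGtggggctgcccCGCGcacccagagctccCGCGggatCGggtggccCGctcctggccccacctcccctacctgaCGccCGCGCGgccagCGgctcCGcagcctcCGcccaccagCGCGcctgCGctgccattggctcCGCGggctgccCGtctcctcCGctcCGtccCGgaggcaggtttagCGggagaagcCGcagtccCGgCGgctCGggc
Hunk: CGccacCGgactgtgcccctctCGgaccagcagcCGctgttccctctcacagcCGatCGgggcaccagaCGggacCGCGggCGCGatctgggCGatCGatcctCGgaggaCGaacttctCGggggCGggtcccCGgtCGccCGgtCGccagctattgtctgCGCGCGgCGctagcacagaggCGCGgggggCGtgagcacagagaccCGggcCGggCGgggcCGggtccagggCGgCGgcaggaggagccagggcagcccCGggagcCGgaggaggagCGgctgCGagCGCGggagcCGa
Gch1: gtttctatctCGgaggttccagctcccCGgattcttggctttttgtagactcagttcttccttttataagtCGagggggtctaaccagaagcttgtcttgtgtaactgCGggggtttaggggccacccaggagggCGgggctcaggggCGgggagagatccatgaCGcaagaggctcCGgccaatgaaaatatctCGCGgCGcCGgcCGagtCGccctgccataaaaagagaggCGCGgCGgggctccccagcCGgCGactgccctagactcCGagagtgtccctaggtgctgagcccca

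How many TSS counted as carrying both marks depended on single peak lists. At 251 of the 328 the regions of both marks shared at least 1 base within the window, with a median of 824.5 bases under both, and at 77 they lay side by side. Of the 328, H3K27me3 replicates 3, 4 and 5 had a peak at 323, 246 and 300, whereas replicates 1 and 2, whose lists are the shortest with 6440 and 6442 peaks, had one at 32 and 45. Without H3K27me3 replicate 3 the class had 213 TSS. Without H3K4me3 replicate 1, so that the deeper H3K4me3 replicate 2 with its 10087 peaks stood alone, it had 1255 TSS. When peaks over a peak of the matched input were left out it had 164; such peaks made up 22.3%, 25.7% and 3.79% of the lists of H3K27me3 replicates 3, 4 and 5.

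Gene functions were compared through 22 lists, read against the shares over all TSS: peaks of H3K4me3 alone at 25.6%, of both at 1.37%, of H3K27me3 alone at 17.8% and of neither at 55.2%, and calls at 40.1% and 24.6%. Genes of mature granule cells leaned to H3K4me3. Of 38, H3K4me3 alone was present at 27, both marks at 1, H3K27me3 alone at 2 and neither at 8; with the H3K4me3 list of replicate 2 alone these were 30, 2, 1 and 5. H3K4me3 was higher at 29 of 36 tested and H3K27me3 at 3, with a median log2 of 1.95 against −0.12 over all TSS. Grin1, the obligate NMDA receptor subunit, had 108 and 122 CPM of H3K4me3, against 21.2, 5.96, 14.9, 24.2 and 16.5 CPM of H3K27me3 (log2 2.75, SE 0.38, adjusted p = 6.12e-06). Mef2a, a transcription factor of synapse maturation (3.40), and Snap25, a SNARE of vesicle fusion (2.53), showed the same separation. Slc17a6, a vesicular glutamate transporter that many excitatory neurons use earlier than Slc17a7, went the other way with 25.5 and 34.9 CPM of H3K4me3, against 102, 56.6, 88.3, 52.4 and 132 CPM of H3K27me3 (log2 −1.47, SE 0.44, adjusted p = 0.00584). The other 2 were Nrxn3, a presynaptic adhesion gene (−1.14), and Kcnk9, a leak potassium channel that was the single list member with both marks. Kcnk9 had 60.8 and 84.2 CPM of H3K4me3, against 84.7, 101, 188, 142 and 260 CPM of H3K27me3 (log2 −1.10, adjusted p = 0.0481). Without H3K4me3 replicate 1 all 3 calls towards H3K27me3 were lost (adjusted p between 0.0637 and 0.241), and that of Kcnk9 was also lost without H3K4me3 replicate 2 (0.113) or H3K27me3 replicate 3, 4 or 5 (0.0736, 0.0530 and 0.117).

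Ion channel genes were divided between the marks. Of 50 TSS, H3K4me3 alone was present at 26, both marks at 4, H3K27me3 alone at 8 and neither at 12, and H3K4me3 was higher at 31 of 48 tested and H3K27me3 at 10 (median log2 1.37). Kcnc1, a fast potassium channel, had 84.3 and 137 CPM of H3K4me3, against 3.53, 11.9, 17.4, 16.1 and 11.0 CPM of H3K27me3 (log2 3.09, SE 0.40), with no overlap. The calcium channel genes Cacna2d3 (2.99) and Cacna1a (2.97) had similar ratios. Kcnip1, which modulates A-type potassium channels, stood opposite with 25.5 and 31.2 CPM of H3K4me3, against 282, 209, 322, 203 and 380 CPM of H3K27me3 (log2 −3.27, SE 0.51, adjusted p = 1.58e-05). Its H3K27me3 region was 111917 bases wide. Scn4b, a sodium channel subunit (−2.67), Cacng3, an AMPA receptor auxiliary subunit (−2.05), and Kcnma1, the BK potassium channel (−2.79), were also higher in H3K27me3. The start of Kcnma1 lies 786 bases from another TSS, whose share of the counts was not tested. Both marks were present at Kcnma1, Kcnq5 (log2 −1.65), Kcna2 (1.31) and Hcn4, a pacemaker channel. At Kcna2 the regions of the marks shared 0 bases within the window, and 2 of the 5 H3K27me3 lists had a peak. Its mean H3K27me3 level was 28.7 CPM, close to the median of 27.2 CPM at TSS with neither mark. Hcn4 had 78.4 and 139 CPM of H3K4me3, against 3.53, 35.8, 116, 114 and 80.4 CPM of H3K27me3 (log2 0.58, adjusted p = 0.350), and its libraries overlapped. Against H3K27me3 replicates 1 and 2 alone Hcn4 stood at 2.60 (adjusted p = 4.28e-06), and against replicates 3 to 5 at −0.04. Without H3K4me3 replicate 2, H3K4me3 was higher at 20 channel genes, and the call of Kcnq5 was lost (adjusted p = 0.0532). With the H3K4me3 list of replicate 2 alone, both marks were at 7, H3K27me3 alone at 5 and neither at 6. Against H3K27me3 replicates 1 and 2 alone, H3K27me3 was higher at 6.

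Genes of presynaptic release leaned to H3K4me3. H3K4me3 was higher at 22 of 27 tested and H3K27me3 at 1 (2 without H3K27me3 replicate 1 or 2; median log2 2.26), while H3K4me3 peaks alone were at 15 of 30, both marks at 1, H3K27me3 alone at 2 and neither at 12. With the H3K4me3 list of replicate 2 alone, 26 of 30 had H3K4me3 only and 1 had neither. Vamp2, the vesicle SNARE synaptobrevin, had 86.3 and 139 CPM of H3K4me3, against 3.53, 11.9, 7.46, 17.5 and 7.31 CPM of H3K27me3 (log2 3.48, SE 0.42, adjusted p = 2.88e-06). Rims2 and Bsn of the active zone (3.32 and 3.23) had similar ratios. Sypl2, a synaptophysin relative best known from muscle, was the exception with 25.5 and 38.7 CPM of H3K4me3, against 106, 92.4, 314, 230 and 267 CPM of H3K27me3 (log2 −2.63, SE 0.56, adjusted p = 0.000330). Syt2, a fast calcium sensor of release, carried both marks and did not pass the test (log2 0.38, adjusted p = 0.401); it stood at 1.14 (adjusted p = 0.0253) against H3K27me3 replicates 1 and 2 and at −0.05 without H3K4me3 replicate 2.

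Immediate early genes, switched on by neuronal activity, had H3K4me3 in most cases. Of 25 TSS, H3K4me3 alone was present at 14, both marks at 1, H3K27me3 alone at 6 and neither at 4, and H3K4me3 was higher at 19 and H3K27me3 at 4 (median log2 2.07). By the H3K4me3 list of replicate 2 alone both marks were at 4, H3K27me3 alone at 3 and neither at 2; without H3K4me3 replicate 2 neither was at 2, and without H3K27me3 replicate 4 or 5 both marks were at 0. Egr1 had 90.2 and 105 CPM of H3K4me3, against 0, 5.96, 8.70, 9.40 and 5.48 CPM of H3K27me3 (log2 3.82, SE 0.43, adjusted p = 2.24e-06). Dusp1, a phosphatase that ends kinase signalling (3.40), Ier2 (3.34) and the nuclear receptor gene Nr4a3 (2.96) followed. The 4 with higher H3K27me3 were Bdnf, a neurotrophin (−1.81), Egr3 (−1.88), Fosl1 (−1.57) and Klf4 (−1.73). Bdnf had 31.4 and 23.3 CPM of H3K4me3, against 67.1, 74.5, 116, 61.8 and 143 CPM of H3K27me3 (adjusted p = 0.00144), without overlap. Without H3K4me3 replicate 2 only 1 of the 4 calls was left. Klf4 rested on the H3K27me3 libraries used, since it stood at 0.30 against replicates 1 and 2, and its call was also lost without H3K4me3 replicate 1 (adjusted p = 0.168) or H3K27me3 replicate 3 (0.0607). Egr4 carried both marks, with H3K4me3 higher (log2 1.12, adjusted p = 0.0160), a call lost without H3K4me3 replicate 2 (adjusted p = 0.0982) or H3K27me3 replicate 2 (0.0766).

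Genes of basic cell functions carried H3K4me3 peaks or none, and no H3K27me3 peak in the consensus. Ribosomal protein genes had H3K4me3 alone at 31 of 42 TSS and neither mark at 11, and H3K4me3 was higher at 36 of 38 tested (median log2 2.46). Genes of the proteasome and of mitochondrial respiration had H3K4me3 alone at 26 of 44 and neither at 18, with H3K4me3 higher at 32 of 33 tested (median log2 2.33). With the H3K4me3 list of replicate 2 alone, 40 of the 42 and 38 of the 44 had H3K4me3. Psmb2, a subunit of the proteasome core, had 131 and 147 CPM of H3K4me3, against 17.6, 14.9, 17.4, 12.1 and 16.5 CPM of H3K27me3 (log2 3.15, SE 0.35). Rpl5 (3.49), Rpl4 (3.46) and Uqcrc2 of respiratory complex III (3.12) were alike. Psma6 of the proteasome was the single gene called towards H3K27me3 (log2 −1.16, adjusted p = 0.0367), with 17.6 and 8.47 CPM of H3K4me3, against 35.3, 23.8, 12.4, 36.3 and 23.8 CPM of H3K27me3. Those libraries overlapped, the start had no peak of either mark, and the call was lost without H3K4me3 replicate 2 (adjusted p = 0.546) or H3K27me3 replicate 4 (0.0806).

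The genes that write, read and erase the marks were themselves mostly marked by H3K4me3. H3K4me3 alone was present at 26 of 42, both marks at 3, H3K27me3 alone at 3 and neither at 10, and H3K4me3 was higher at 35 of 40 tested and H3K27me3 at 1 (median log2 2.50). Kmt2d, an H3K4 methyltransferase, had 122 and 144 CPM of H3K4me3, against 3.53, 2.98, 9.94, 8.06 and 1.83 CPM of H3K27me3 (log2 4.43, SE 0.44, adjusted p = 1.94e-06). The H3K4 demethylase genes Kdm5b (3.88) and Kdm5c (3.61) and Phc3 of Polycomb repressive complex 1 (3.37) followed. Among the genes with both marks, Cbx2 of Polycomb repressive complex 1, which binds H3K27me3, had 66.7 and 95.3 CPM of H3K4me3, against 3.53, 8.94, 27.3, 30.9 and 12.8 CPM of H3K27me3 (log2 2.11, SE 0.44, adjusted p = 0.000240). The median H3K27me3 level was 44.1 CPM at all TSS with both marks and 27.2 CPM at those with neither. The H3K27me3 counts of Cbx2 thus lay near or below those of starts without peaks, and its class rests on the peak lists. Pcgf5 of a related complex did not pass the test (log2 0.50, adjusted p = 0.360), but stood at 2.07 (adjusted p = 7.67e-05) against H3K27me3 replicates 1 and 2 and at −0.07 against replicates 3 to 5. Phf19, which helps PRC2 bind chromatin, was the single gene with higher H3K27me3 (log2 −2.11, SE 0.50, adjusted p = 0.000911).

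**Figure D3:**
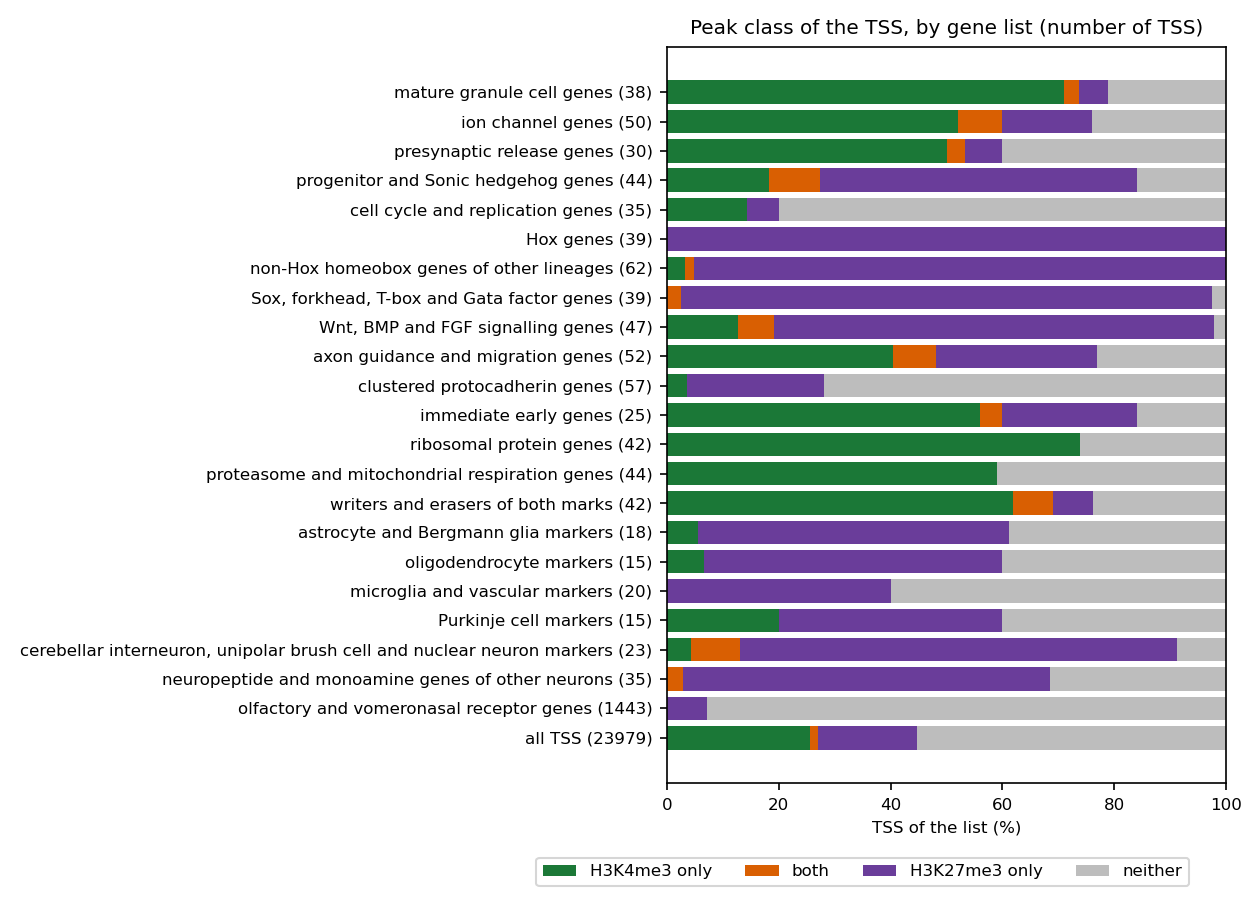
Share of the TSS of each gene list (horizontal axis, percent; number of TSS in brackets) that had peaks of H3K4me3 only, both marks, H3K27me3 only or neither. Ribosomal protein genes and mature granule cell genes have the widest H3K4me3-only bars, the Hox bar is H3K27me3-only throughout, and both marks make up at most 9.09% of any list, that of progenitor and Shh genes.

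Progenitor and Shh genes, active before P21, were split. H3K4me3 alone was present at 8 of 44, both marks at 4, H3K27me3 alone at 25 and neither at 7, and H3K4me3 was higher at 10 and H3K27me3 at 18 (median log2 −0.40). Against H3K27me3 replicates 1 and 2 alone, H3K27me3 was higher at 11. Within the Shh pathway itself the receptor gene Ptch1 had 100 and 180 CPM of H3K4me3, against 3.53, 2.98, 12.4, 21.5 and 0 CPM of H3K27me3 (log2 3.86, SE 0.53, adjusted p = 5.20e-06), and Sufu, an inhibitor of Gli proteins, was also higher in H3K4me3 (2.99). Of the genes of its nuclear effectors, Gli1 and Gli2 lay on the other side, as did the progenitor factor gene Atoh1. They are named for their roles, outside the naming rule and after their values were seen. The ratio of Gli3 is not reported here. Gli2 had 35.3 and 35.5 CPM of H3K4me3, against 116, 155, 290, 226 and 267 CPM of H3K27me3 (log2 −2.58, adjusted p = 0.000141). Gli1 (−1.82, adjusted p = 0.00322) and Atoh1 (−2.47, adjusted p = 0.000144) were also higher in H3K27me3. Atoh1 had 33.3 and 44.5 CPM of H3K4me3, against 145, 182, 290, 200 and 278 CPM of H3K27me3. All H3K27me3 libraries exceeded both H3K4me3 libraries at these 3 genes. Id3, an inhibitor of differentiation (−3.66), Notch1 (−3.28), Meis2 (−3.20) and Cxcr4, the chemokine receptor of the external layer (−3.03), led the list by p, and Nfib (3.47) and Notch2 (2.84) led on the H3K4me3 side. Notch1 had 3.92 and 4.24 CPM of H3K4me3 and has another TSS within 2 kb, whose share of the counts was not tested.

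Both marks were at Barhl2, Ccnd2, Jag1 and Sox11 of this list. Sox11, a factor of newborn neurons, had 56.8 and 80 CPM of H3K4me3, against 31.8, 32.8, 85.8, 57.8 and 60.3 CPM of H3K27me3 (log2 0.31, adjusted p = 0.474), and stood at 1.29 (adjusted p = 0.0113) against H3K27me3 replicates 1 and 2 and at −0.11 against replicates 3 to 5. The Notch ligand gene Jag1 was higher in H3K27me3 (−1.89, adjusted p = 0.00486), with the call lost without H3K4me3 replicate 2 (adjusted p = 0.0870). The homeobox gene Barhl2 was higher in H3K4me3 (0.96, adjusted p = 0.0376), with the call lost without H3K4me3 replicate 2 (0.528) or H3K27me3 replicate 1, 2 or 3 (0.0710, 0.139 and 0.0547). Peak classes here turned on H3K4me3 replicate 1. With the list of replicate 2 alone, 21 of the 44 had both marks and 8 had H3K27me3 alone, since 17 TSS, Atoh1, Ccnd1, Cxcr4, Gli3 and Hes1 among them, had a peak in that list only.

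Cell cycle and replication genes had no peak of either mark at 28 of 35 TSS, H3K4me3 alone at 5 and H3K27me3 alone at 2, yet H3K4me3 was higher at 22 of 31 tested and H3K27me3 at 0 (median log2 1.38). For that 0 in edgeR, 0 had an unadjusted p under 0.05 and 0 were called in DESeq2. Without H3K4me3 replicate 2 it was higher at 10. With the H3K4me3 list of replicate 2 alone, 21 had H3K4me3 only, 2 both marks, 0 H3K27me3 alone and 12 neither. Cenpe, a kinetochore motor, had 56.8 and 73.1 CPM of H3K4me3, against 17.6, 14.9, 16.2, 12.1 and 16.5 CPM of H3K27me3 (log2 2.10, SE 0.35, adjusted p = 2.75e-05), and the libraries did not overlap. The replication licensing gene Cdt1 (2.57), the helicase subunit gene Mcm4 (2.66) and the cyclin gene Ccne2 (2.53) were the others with the smallest p.

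H3K27me3 alone marked nearly all transcription factors of other lineages. All 39 Hox genes had H3K27me3 peaks without H3K4me3 peaks, and H3K27me3 was higher at all 39, with log2 ratios from −5.0 to −3.34 (median −4.18). Hoxc11, described above, lies within this range. Among 62 homeobox genes outside the clusters, H3K4me3 alone was present at 2, both marks at 1 and H3K27me3 alone at 59, with both marks at 8 by the H3K4me3 list of replicate 2 alone and at 0 without H3K27me3 replicate 4 or 5. H3K4me3 was higher at 2 of 61 tested and H3K27me3 at 59 (median log2 −3.71). Cdx2 of the gut had 21.6 and 26.5 CPM of H3K4me3, against 349, 396, 456, 367 and 614 CPM of H3K27me3 (log2 −4.15, SE 0.54). The pair called towards H3K4me3 was En2, which patterns the cerebellum (2.55, adjusted p = 4.35e-05), and Uncx, with both marks (1.52, adjusted p = 0.00231; 1.23, adjusted p = 0.0629, without H3K4me3 replicate 2). En2 had 45.1 and 83.7 CPM of H3K4me3, against 7.06, 0, 13.7, 18.8 and 9.14 CPM of H3K27me3. Of 39 Sox, forkhead, T-box and Gata genes, both marks were present at 1 (Eomes), H3K27me3 alone at 37 and neither at 1 (Gata1), and H3K27me3 was higher at 35 of 37 tested (median log2 −3.67). Both marks were at 3 of these with the H3K4me3 list of replicate 2 alone, and at 0 without H3K27me3 replicate 3, which left 1 with H3K4me3 alone.

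Signalling genes of the Wnt, BMP and FGF families were mostly under H3K27me3, with a few exceptions. Of 47 TSS, H3K4me3 alone was present at 6, both marks at 3, H3K27me3 alone at 37 and neither at 1, and H3K4me3 was higher at 9 and H3K27me3 at 34 (median log2 −2.55). Among ligands, Wnt1 had 23.5 and 27 CPM of H3K4me3, against 346, 385, 567, 434 and 589 CPM of H3K27me3 (log2 −4.18, SE 0.54, adjusted p = 3.87e-06), and Wnt3a (−4.27), Wnt10b (−3.72) and Bmp4 (−3.43) were alike. Fgf9, an exception, had 80.4 and 98.5 CPM of H3K4me3, against 7.06, 8.94, 14.9, 21.5 and 20.1 CPM of H3K27me3 (log2 2.51, SE 0.38), and its start lay in the widest H3K4me3 region of all, at 6178 bases. Fgf14, which binds sodium channels (2.56), the BMP antagonist gene Chrd (3.95) and the receptor gene Fgfr1 (2.32) were also higher in H3K4me3. Both marks were at the Frizzled receptor genes Fzd1 (1.49) and Fzd8 (1.61), called towards H3K4me3, and at Fgf5, which did not pass the test (−0.45, adjusted p = 0.362; 0.46 against H3K27me3 replicates 1 and 2). With the H3K4me3 list of replicate 2 alone, 20 of the 47 had both marks and 20 had H3K27me3 alone.

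Axon guidance and migration genes were mixed. Of 52 TSS, H3K4me3 alone was present at 21, both marks at 4, H3K27me3 alone at 15 and neither at 12; H3K4me3 was higher at 24 of 50 tested and H3K27me3 at 9 (median log2 0.75). Among receptors, Unc5c, a netrin receptor, had 114 and 156 CPM of H3K4me3, against 10.6, 20.9, 18.6, 29.6 and 12.8 CPM of H3K27me3 (log2 2.81, SE 0.37), and Plxna1 (3.40) and Ephb1 (2.95) were alike. Robo3, the receptor of crossing axons, had 33.3 and 23.3 CPM of H3K4me3, against 198, 247, 312, 251 and 424 CPM of H3K27me3 (log2 −3.37, SE 0.53). Among ligands and adaptors, Efna2 was higher in H3K4me3 (3.06), whereas Slit1 (−2.97) and Dab1, the adaptor of Reelin signalling (−3.88), were higher in H3K27me3. Ntn1, the netrin ligand gene with both marks, was called towards H3K27me3 (−1.39, adjusted p = 0.0425), but stood at 0.38 against H3K27me3 replicates 1 and 2, and the call was lost when any 1 of H3K4me3 replicate 1 or 2 or H3K27me3 replicate 3, 4 or 5 was left out (adjusted p between 0.0598 and 0.195). Without H3K4me3 replicate 1, H3K27me3 was higher at 4 genes of the list, and by the H3K4me3 list of replicate 2 alone 14 had both marks, 5 H3K27me3 alone and 3 neither.

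The clustered protocadherin genes, which give each neuron its own surface code, had few H3K4me3 peaks. H3K4me3 alone was present at 2 of 57, H3K27me3 alone at 14 and neither at 41, and H3K4me3 was higher at 4 of 53 tested and H3K27me3 at 25 (median log2 −0.91). The 4 were Pcdhac1, Pcdhac2, Pcdhgc3 and Pcdhgc4, of the C-type that lies at the ends of the alpha and gamma clusters; Pcdhgc5, the other C-type gene, had too few counts to be tested. Whether ratios differ with position was not tested. Pcdhac2 had 106 and 141 CPM of H3K4me3, against 14.1, 23.8, 22.4, 29.6 and 31.1 CPM of H3K27me3 (log2 2.31, SE 0.35, adjusted p = 1.14e-05). Pcdhac1 (0.83, adjusted p = 0.0497) lost its call without any 1 of 6 of the libraries, all but H3K27me3 replicate 4, and Pcdhgc4 (1.32) without H3K4me3 replicate 2. Pcdhb1 had 19.6 and 30.2 CPM of H3K4me3, against 116, 110, 92.0, 86.0 and 130 CPM of H3K27me3 (log2 −2.03, SE 0.42, adjusted p = 0.000252). The count towards H3K27me3 was 10 without H3K4me3 replicate 1 and 7 without replicate 2, and by the peak lists 7 genes had H3K27me3 alone without H3K27me3 replicate 3 and 7 without replicate 5. These genes have near-identical copies, among which the authors' counting could split or drop reads. In DESeq2 H3K27me3 was higher at 14.

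**Figure D4:**
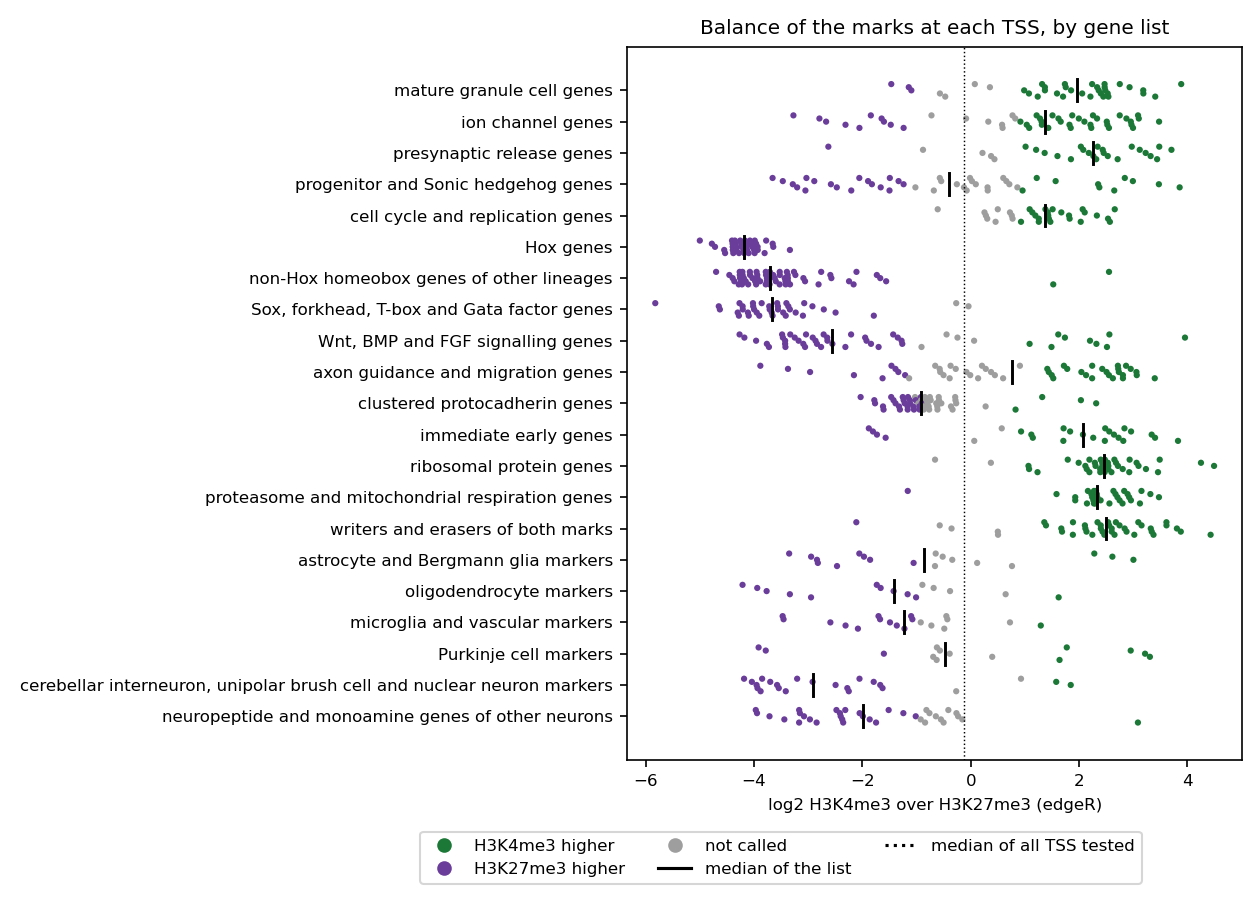
Log2 ratio of H3K4me3 over H3K27me3 (horizontal axis) at each tested TSS of 21 gene lists, coloured by the call of the edgeR test, with the median of each list as a bar and the median of all TSS (−0.12) as a dotted line. Hox genes form a tight group around −4.18, basic cell function genes and writers and erasers lie to the right of 0 with few exceptions, and progenitor, axon guidance and Purkinje cell lists spread over both sides.

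Markers of the other cell types of the cerebellum were mostly H3K27me3-marked or unmarked. Of 18 astrocyte and Bergmann glia markers, H3K4me3 alone was present at 1, H3K27me3 alone at 10 and neither at 7; H3K4me3 was higher at 3 and H3K27me3 at 9 (median log2 −0.86). Of 15 oligodendrocyte markers, H3K4me3 alone was at 1, H3K27me3 alone at 8 and neither at 6, and 1 and 10 were called (median −1.42). Olig2, the master factor of that lineage, had 9.80 and 20.7 CPM of H3K4me3, against 229, 230, 403, 234 and 430 CPM of H3K27me3 (log2 −4.21, SE 0.58, adjusted p = 5.51e-06). Of 20 microglia and vascular markers, 8 had H3K27me3 alone and 12 neither, and 1 and 12 of 19 tested were called (median −1.22). The 12 became 7 without H3K4me3 replicate 1 and 7 without replicate 2, and the single call towards H3K4me3 became 0 without H3K4me3 replicate 2 and 2 without H3K27me3 replicate 2. Cldn5, the tight junction gene of brain vessels, had 27.4 and 33.9 CPM of H3K4me3, against 258, 352, 406, 294 and 420 CPM of H3K27me3 (log2 −3.47). In the H3K4me3 list of replicate 2 alone, H3K4me3 alone and both marks were at 2 and 3 of the astrocyte, 2 and 2 of the oligodendrocyte and 1 and 1 of the microglia and vascular markers. H3K4me3 at glial markers was seen at Septin4 (3.0), the bicarbonate transporter gene Slc4a4 (2.61), the glutamate transporter gene Slc1a2 (2.28; adjusted p = 0.0734 without H3K4me3 replicate 2) and Mbp (1.62), whose part in any other result was not tested.

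Markers of other cerebellar neurons were mostly on the H3K27me3 side in 1 list and split in the other. Of 23 markers of cerebellar interneurons, unipolar brush cells and nuclear neurons, H3K4me3 alone was present at 1, both marks at 2, H3K27me3 alone at 18 and neither at 2, and H3K4me3 was higher at 2 and H3K27me3 at 19 (median log2 −2.92). H3K4me3 alone was at 3, both marks at 6 and neither at 0 by the H3K4me3 list of replicate 2 alone, and without H3K27me3 replicate 3 H3K4me3 alone was at 2 and both marks at 1. Slc6a5, the glycine transporter of inhibitory neurons, had 15.7 and 18 CPM of H3K4me3, against 314, 241, 382, 195 and 433 CPM of H3K27me3 (log2 −4.18, SE 0.56), and Ptf1a, the factor that sets their fate, had a ratio of −4.04. Eomes of unipolar brush cells carried both marks and did not pass the test (−0.27, adjusted p = 0.556; 0.39 against H3K27me3 replicates 1 and 2). Of 15 Purkinje cell markers, H3K4me3 alone was at 3, H3K27me3 alone at 6 and neither at 6, with 5 and 3 called of 14 tested (median −0.48). These were 6, 4 and 3 by the H3K4me3 list of replicate 2 alone, with both marks at 2. Plcb4, a phospholipase of glutamate signalling, was among them with 54.9 and 78.4 CPM of H3K4me3, against 3.53, 5.96, 9.94, 10.7 and 1.83 CPM of H3K27me3 (log2 3.22, SE 0.41), whereas the factors Skor2 (−3.92) and Lhx5 (−3.78) stood opposite.

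Neuropeptide and monoamine genes of other neurons had both marks at 1 of 35, H3K27me3 alone at 23 and neither at 11, and H3K4me3 was higher at 1 and H3K27me3 at 23 (median log2 −1.99). By the H3K4me3 list of replicate 2 alone both marks were at 3. Cartpt, a hypothalamic peptide gene, had 17.6 and 21.2 CPM of H3K4me3, against 222, 256, 375, 263 and 409 CPM of H3K27me3 (log2 −3.94, SE 0.54). Olfactory and vomeronasal receptor genes, silent in most of the brain, differed from these. Of 1443, H3K27me3 alone was at 103 (64 without H3K27me3 replicate 5) and neither mark at 1340, and their median H3K27me3 level was 48.3 CPM, against 23.8 CPM over all TSS. H3K4me3 was higher at 0 of 1434 tested in edgeR, with 0 at an unadjusted p under 0.05 and 0 in DESeq2, and H3K27me3 was higher at 522. Ratios ran from −2.56 to 0.66. Those 522 were 165 without H3K4me3 replicate 1 and 125 without replicate 2, 232 in DESeq2, and 1207 against H3K27me3 replicates 1 and 2.

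Ranked by each mark alone, some of the highest starts had no peak of that mark. Predicted genes, clone names and small RNA genes were passed over in all rankings. Among the 6 highest H3K4me3 levels of the genes left, Trim62 (173 and 221 CPM, against 7.06, 5.96, 6.22, 12.1 and 3.66 CPM of H3K27me3) and Trim11 (153 and 203 CPM, against 14.1, 17.9, 21.1, 24.2 and 11.0 CPM) had H3K4me3 peaks in both lists. Hjurp, Pisd-ps2, Sp140 and Ugt1a1 had none, were high in both marks and had a peak in all 6 input lists. Sp140, an immune nuclear body gene, had 280 and 328 CPM of H3K4me3, against 607, 548, 428, 535 and 548 CPM of H3K27me3. The part of the input signal in these levels was not tested. The highest H3K27me3 levels of such genes were at Stap2, an adaptor protein gene without an H3K27me3 peak at its start (585 CPM ± 302, SD, n = 5), Tbx20, a heart factor (567 ± 183), Sp140, Klf14 (515 ± 233), Hoxd10 (486 ± 85.2) and Ptf1a (481 ± 133).

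The widest regions at gene starts differed in scale between the marks. For H3K4me3 they lay at Fgf9 (6178 bases), Brd2 with H2-DMa (4968), Zic2 (4898), Scrt1 (4619), Kcnc1 (4446) and Foxo3 (4368), among them neuronal transcription factor and channel genes. For H3K27me3 they lay at the predicted gene Gm15412 (408.4 kb), at the microRNA genes Mir100, Mirlet7a-2 and Mir125b-1 (403.0 kb), at Adgrd1 (328.0 kb), at Vrk1 (327.6 kb), over the Hoxb cluster with 16 starts (302.3 kb) and at Cryaa with Sik1 (291.0 kb). Predicted and microRNA genes are named here because they are the starts these regions hold.

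Promoter composition, which neither the peaks nor the counts used, differed between the classes. The ratio of observed to expected CpG in the 300 bases at the start had a median of 0.841 at TSS with H3K4me3 alone, 0.795 at TSS with both marks, 0.496 at TSS with H3K27me3 alone and 0.309 at TSS with neither. A ratio over 0.6 was found at 86.7%, 80.8%, 39.2% and 28.6% of them, against 46.1% of all TSS. The 7 promoters shown above lie between 0.738 (Gch1) and 1.06 (Tada2b), so the 2 examples with H3K27me3 alone, C1ql4 at 0.764 and Dmrta2 at 0.859, are richer in CpG than most of their class. The lists differed within the H3K27me3 side as well: the median was 0.759 for homeobox genes outside the clusters, 0.657 for Hox genes, 0.475 for neuropeptide and monoamine genes and 0.111 for olfactory and vomeronasal receptor genes. Among TSS with no peak, those called towards H3K4me3 had a median of 0.749 those called towards H3K27me3 0.192 and those called in neither direction 0.197.

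Short motifs, searched on both strands in the same 300 bases, give a description only. TATAAA was present in 4.83% of promoters with H3K4me3 alone, 6.71% with both marks, 12% with H3K27me3 alone and 17.4% with neither, against 13.1% of all. The E-box CAGATG was present in 8.80%, 7.01%, 15.1% and 17.9%, against 14.9% of all. The cyclic AMP response element TGACGTCA was present in 4.08%, 3.35%, 1.62% and 1.83%, against 2.39% of all, and CCAAT in 36.7%, 32.6%, 34.1% and 40.5%, against 38.3% of all.

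**Figure D5:**
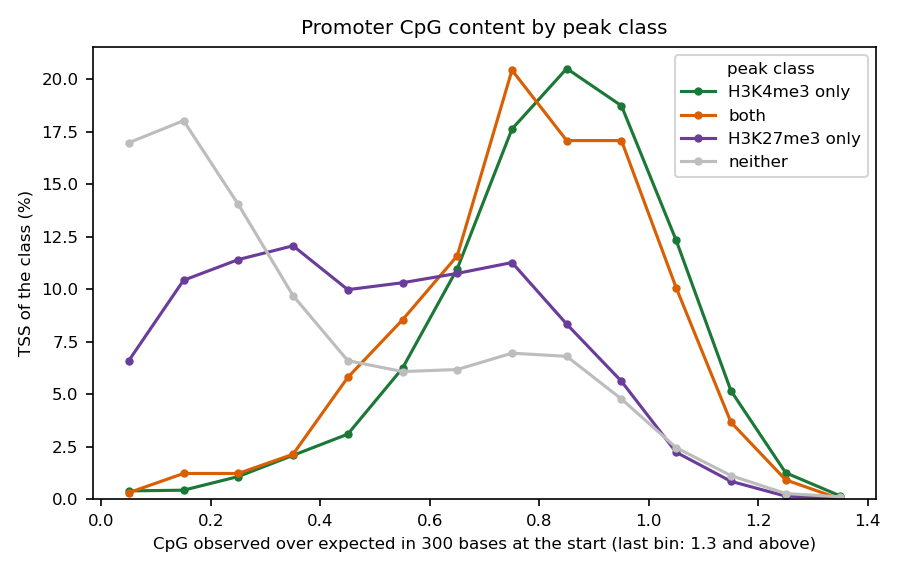
Share of the TSS of each peak class (vertical axis, percent) by the ratio of observed to expected CpG in the 300 bases at the start (horizontal axis, no unit). The curves of H3K4me3 only and of both marks peak above 0.7, that of neither lies mostly below 0.4, and H3K27me3 only spreads over the whole range around its median of 0.496.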

How the data were processed

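ChIP-seq libraries of 2 marks from P21 granule cell nuclei were compared, 2 for H3K4me3 and 5 for H3K27me3. Reads were 75-base single-end, per the labels' protocols. The deposited counts are whole, unnormalized read counts per TSS; how reads were aligned and counted, and in which window, was not given in the sources used here. HOMER 4.11, ChIPseeker 1.30.3 and mm10 are named per the submitters' processing notes, without a role. Each deposited peak list gives intervals with a score whose meaning the authors' files do not state, and which is 0 throughout in H3K27me3 replicates 3 to 5.

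Of 24045 TSS, 6 with missing values were left out. Counts were filtered (filterByExpr), TMM-scaled and tested with edgeR 4.0.16 (glmQLFit, glmQLFTest, robust; limma 3.58.1, R 4.3.3), mark as the only term, Benjamini-Hochberg adjusted p threshold 0.05; each p in the report is from this test unless an exact test is named. The test was tested on simulated data. Starts came from GRCm38.p6, where 23985 gene IDs matched, and overlaps from bedtools 2.31.1 (1 base); pandas 2.3.3 and numpy 2.4.6 made the tables. Genes were named by rule, passing over predicted genes, clone names and small RNA genes: the 8 largest called ratios in each direction (mean of at least 50 CPM, no overlap), the 6 highest levels of each mark, the 10 highest in both marks, and in each list up to 4 called members by p in each direction and up to 3 with both marks. Members and lists were chosen with earlier results of these data known. DESeq2 1.42.0, other scalings, filters, windows, peak rules and left-out libraries were alternatives. Same-numbered libraries are not stated to share an animal and were not blocked. Input libraries have peak lists only here, and libraries of other stages were not used. Some genes the rule would name are not reported here.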

Additional observations from a re-analysis of the deposited data

Results flagged for a closer look

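Sfi1, a centrosomal gene, lies outside the comparison because its H3K27me3 values are missing. Its H3K4me3 counts were 749 in replicate 1 and 2622 in replicate 2, against 186 and 774 for the next highest TSS of those libraries. In 43 groups of 5 H3K27me3 libraries, each examined for a single library far from the others, 0 stood apart. Such a check cannot flag 2 libraries that lie together. Replicates 1 and 2 had 6440 and 6442 peaks, against 42000, 50222 and 38421 in replicates 3, 4 and 5, so it does not show that the libraries were alike.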

How the results depend on the processing

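The count of TSS with higher H3K4me3 stayed within 1.5 times of 8686 under every alternative run, with a range of 6765 to 8698 when 1 library was left out. That with higher H3K27me3 was 2397 with a minimum absolute log2 ratio of 1, and 3136 to 6146 when 1 library was left out. H3K4me3 replicates 1 and 2 are 2 libraries of unequal depth, and without either the H3K4me3 group rests on 1 library assumed to vary like the rest. Whether shared numbers pair the libraries of the marks was not settled. Correlations of same-numbered deviations from the mean of each mark were 0.338 for replicate 1 and −0.177 for replicate 2. The deviations of the 2 H3K4me3 libraries mirror each other exactly, so these values are not separate checks and cannot decide it. With the replicate block the counts were 8811 and 7790, and the ratio changed sign at 15 named genes, 8 of which were called under the block (Zbtb7c, Efna5, Xylt1, Hunk, Spats2l, Plxna4, Gch1 and Prss12). Ntn1 and Klf4, called as reported, changed sign to 0.1798 and 0.0958. Against H3K27me3 replicates 1 and 2 alone the sign also changed at 15 named genes, 6 of them called, and Ntn1 and Klf4 stood at 0.3792 and 0.3036.

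Peak classes changed with the rule for peaks and with the libraries used. The class with both marks, 328 TSS as reported, had 541 with a window of 2 kb, 1588 with a peak in any 1 library of each mark, 25 with a peak in every library, 164 without peaks over matched input, 67 in the upper part by score, 25 with H3K27me3 replicates 1 and 2 only, 33 and 45 with replicate 1 or 2 alone, and 213 to 1255 when 1 library was left out. H3K4me3 alone covered 9274 TSS with a peak in any library and 2027 in the upper part by score. H3K27me3 alone covered 1162 with a peak in every library, 1165 with replicates 1 and 2 only, and 1324 and 1567 with replicate 1 or 2 alone. Neither mark was at 8527 with a peak in any library. The difference in median peak width ran from −359 to 137 bases when 1 library was left out. With the start of the gene record, an alternative added after the data were seen, the classes had 5822, 316, 4262 and 13585 TSS. Of 2888 values of named genes under alternatives, 64 at 21 genes had the opposite sign, 14 of these with a call, and none with a call in one direction as reported and in the other under the alternative. Xylt1 and Hunk were called in opposite directions between alternatives, against H3K27me3 replicates 1 and 2 and against replicates 3 to 5. Calls at 84 values were lost, and 43 gained one. The causes were not tested. Counts limit precision most in H3K27me3 replicates 1 and 2 and H3K4me3 replicate 1, the libraries with the lowest totals.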

Other observations

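The X chromosome had a smaller share of starts called towards either mark than the autosomes. Among starts with no other TSS within 2 kb, H3K4me3 was higher at 157 of 870 tested on the X (18.05%) and at 7299 of 18856 tested on autosomes (38.7%), and H3K27me3 was higher at 19.4% and 25.6%. Of those called towards H3K4me3, an H3K4me3 consensus region was present at 22 of 157 on the X and at 4052 of 7299 on autosomes, and their median H3K4me3 level was 46.7 CPM and 76.6 CPM. At starts called towards H3K27me3 the median H3K27me3 level was likewise lower on the X, at 45.1 CPM against 69.0 CPM. The sex of the mice is not stated, and the difference was not tested.

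Counts were low at starts close to another start. At TSS with H3K4me3 alone and another TSS within 100 bases, the median H3K4me3 level was 3.36 CPM (n = 573), against 90.1 CPM where the next TSS was over 20 kb away (n = 2667). At TSS with H3K27me3 alone the median H3K27me3 level was 6.27 CPM (n = 75), against 102 CPM (n = 2440). The cause was not tested, and a level at such a start is no measure of the mark.

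Few starts were high in both marks by counts: 39 of 24039 TSS were in the top 10% of each, of which 12 had peaks of both marks, 3 of H3K4me3 alone, 15 of H3K27me3 alone and 8 of neither, and 1 was given no class. Among the 20012 TSS with no other TSS within 2 kb, 26 were in the top 10% of each mark within that set. Of these, 5 had peaks of both marks, 1 of H3K4me3 alone, 13 of H3K27me3 alone and 7 of neither. The 14 highest of the 26, a number chosen after their values were seen, were all outside the peak class with both marks. Of those 14, 11 had a peak in at least 1 of 6 input lists and 7 lay on chromosome 1, Sp140, Ugt1a1 and Hjurp among them. A peak in at least 1 of the 6 input lists was also common at marked starts in general, at 77.8% of TSS with H3K4me3 alone, 87.5% with both, 67.7% with H3K27me3 alone and 36.3% with neither. The inputs of H3K27me3 replicates 3 and 4 hold 54511 and 63706 peaks, against 338 and 224 for those of H3K4me3 replicates 1 and 2. Of the H3K4me3 peaks, 0% and 0.0099% lay over a peak of their matched input, but those 2 input lists are too short for this to decide. Neither these values nor the shares above measure input signal under H3K4me3 peaks.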
